A study of Homo sapiens with 40 samples.

Results

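The S phase and replication fork genes are 45 protein-coding genes whose products license origins, form the replicative helicase, copy DNA, supply nucleotides or handle histone mRNA and chromatin during replication. They were taken by gene symbol and not by a measured value, though with earlier results of these data known. They are 45 of the 60279 genes listed in the deposited tables. Each symbol matched 1 Ensembl identifier, and all 45 genes are accounted for. The cells were T47D, an established human luminal breast cancer line at passage 10 with no treatment, sorted as single EpCAM+/CD49f+ cells and processed with G&T-seq (13 cells), the Takara SMART-seq HT kit (13 cells) or the NEB NEBNext Single Cell/Low Input kit (14 cells). Each protocol had its own lysis buffer and its own MiSeq run, and the effect of a run cannot be told apart from that of its protocol. Whether the cells came from the same flask is not given in the sources used here. A protocol was therefore treated as 1 sample, with its cells described one by one and not as replicates. The quality thresholds of the study removed cells C2 and F1 of G&T, C2 and F1 of Takara, and B2, F1 and F2 of NEB, which left 11 cells per protocol. No p-value was computed across cells. Each SD or range is a description of cells from a single run.

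Before S phase the origin recognition complex, CDC6 and CDT1 load the ring of MCM2 to MCM7 onto DNA, which licenses an origin. In S phase CDC45 and the GINS complex join the ring to make it an active helicase, polymerases copy the strands, PCNA tethers the polymerases to the DNA, and nucleotide synthesis enzymes supply the building blocks. Many of these genes are transcribed around the G1/S transition under E2F factors, while genes of mitosis peak later, so that in a growing, unsynchronised culture single cells are known to differ in both programmes.

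The kept cells had 658154 to 1166633 reads on genes in G&T, 818512 to 1287911 in Takara and 624772 to 963816 in NEB, and they detected 9541 to 12794, 10624 to 11855 and 4416 to 6719 genes. The values are read counts without molecular identifiers, scaled here by the reads on genes of each cell (CPM), and intervals given for pooled reads are 95% Poisson intervals that cover counting error only. Of 8 luminal markers (EPCAM, KRT8, KRT18, KRT19, ESR1, PGR, GATA3 and FOXA1), 8 had reads in every kept cell of G&T and Takara and 6 in every kept cell of NEB. Of 8 markers of leukocytes, endothelium, fibroblasts and basal epithelium, 7 were without reads in Takara and NEB. In G&T all 8 had reads, 1 of them in every kept cell. The summed level of all 8 stayed between 0 and 50.04 CPM in every kept cell, with a range of 1.52 to 47.2 CPM in G&T.

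The promoters of these genes are shown as sequence only, and their relation to the variation between cells was not tested. RefSeq start windows on GRCh38.p14, from 250 bases before to 50 bases after a transcript start, were found for 38 of the 45 genes, 53 windows in all. RPA3, GINS4, CCNE2, MCM4, MCM5, POLD3 and RPA2 had none in the table. The words TTTCCCGC, TTTCGCGC, TTTGCCGC and TTTGGCGC, forms of the E2F motif, were searched on both strands. At least 1 was present in 22 of the 53 windows (41.5%), against 3.31% of all 35116 windows, and in 21 of the 38 genes (55.3%), against 3.99% of all genes with a window. CCAAT, the NF-Y word, was present in 56.6% of the genes' windows and in 34.6% of all windows. In a comparison list of 40 other replication genes, 31.1% of the windows had an E2F word and 44.4% had CCAAT. For 20 G2 and mitosis genes these shares were 16.7% and 88.9%, so CCAAT was more frequent there than in the 45 genes. The windows of the replication genes had a median GC content of 67.7%, and the windows of all genes 58.7%. The 120 bases before the start of 4 genes are printed below 5′ to 3′ on the gene's strand, with E2F words in capitals, for genes whose RefSeq start lies at the edge of the annotated gene.
MCM6 (chr2:135876444-135876563, minus strand): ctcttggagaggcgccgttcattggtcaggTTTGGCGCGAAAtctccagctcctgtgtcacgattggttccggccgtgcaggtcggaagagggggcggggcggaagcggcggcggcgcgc
PCNA (chr20:5126623-5126742, minus strand): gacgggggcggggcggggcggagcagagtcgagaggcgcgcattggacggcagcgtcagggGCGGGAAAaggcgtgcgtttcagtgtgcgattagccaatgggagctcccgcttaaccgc
TYMS (chr18:657533-657652, plus strand): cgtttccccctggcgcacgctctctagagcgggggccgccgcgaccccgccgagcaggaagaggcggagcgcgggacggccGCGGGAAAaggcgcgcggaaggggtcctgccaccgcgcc
CDC6 (chr17:40287759-40287878, plus strand): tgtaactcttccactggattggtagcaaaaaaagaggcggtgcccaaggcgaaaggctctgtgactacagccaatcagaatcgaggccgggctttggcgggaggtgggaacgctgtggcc
The MCM6 run of capitals holds 2 words on opposite strands that overlap. CDC6 has no word in the printed stretch, and the 1 word of its window, TTTGGCGC, lies after the transcript start. A match describes the letters of these windows only.

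Nearly all of the 45 genes were read in most G&T and Takara cells, and far fewer in NEB cells. A G&T cell had reads on 40.9 ± 5.70 of the genes (SD, n = 11 cells; range 26 to 45), a Takara cell on 41.5 ± 4.70 (30 to 45) and an NEB cell on 21.7 ± 7.75 (10 to 35). Thinned to 624772 reads on genes in every cell, the expected numbers were 40.7, 41.1 and 21.6, which is close to the numbers before thinning. Reads in every kept cell were found for 23 genes in G&T, 26 in Takara and 3 for NEB (GINS2, RPA2 and RPA3). Over all genes with a read in the protocol, 24.9%, 36.7% and 11.1% had reads in every kept cell. ORC1, CDC45 and GINS3 had no read in any kept NEB cell, where 0 reads allow up to 0.376 CPM pooled, and 25 of the genes had reads in fewer than 6 NEB cells.

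The summed level of the 45 genes differed widely between cells of the same run. In G&T it was lowest in cell H1 at 1630 CPM, had a median of 5283 CPM and was highest in D1 at 10063 CPM, a 6.18-fold range with a coefficient of variation (CV, the SD over the mean) of 0.484. In Takara it went from 939 CPM in E2 through a median of 5283 CPM to 15154 CPM in A1, a 16.1-fold range with a CV of 0.646. In NEB it went from 1065 CPM in B1 through a median of 2355 CPM to 8118 CPM in E2, with a CV of 0.678 that was 0.283 without E2. The ranges of the 3 protocols overlapped. The highest cell was shared by most genes in Takara, where 35 of the 45 were highest in A1, and by fewer in the others, with 15 highest in G&T cell D1 and 19 in NEB cell E2. At the low end 34 were lowest or tied for lowest in Takara cell E2 and 29 in G&T cell H1.

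**Figure D1:**
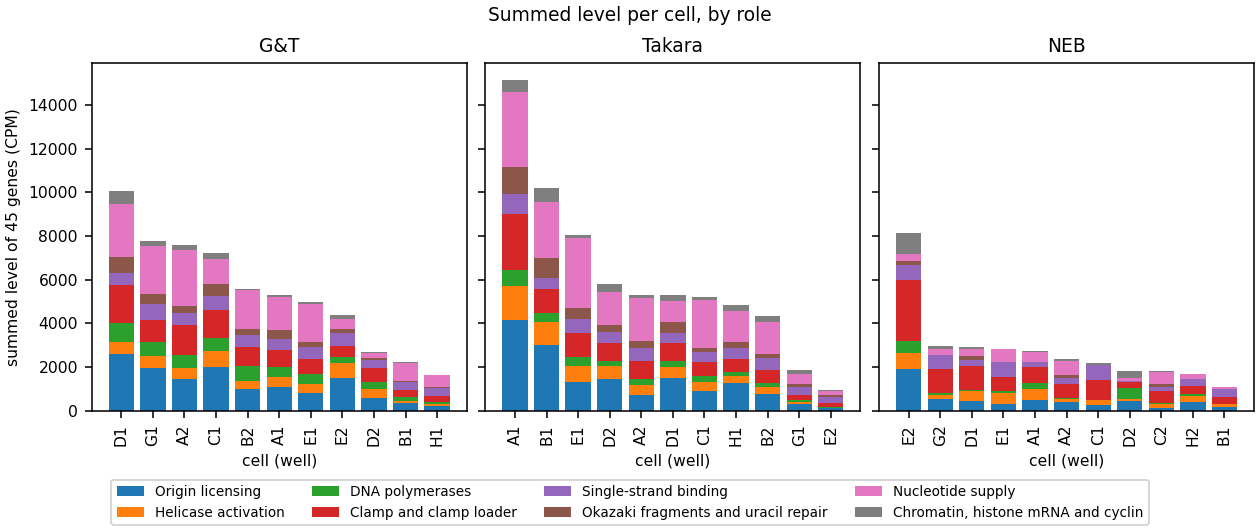
Bars give the summed level of the 45 genes in each kept cell (CPM, linear axis from 0), stacked by role, with cells ordered from the highest sum within each protocol. Takara A1 and NEB E2 stand above the other cells of their run at 15154 and 8118 CPM, and the second highest NEB cell is at 2959 CPM.

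Technical measures of the same cells are given beside these sums, over 11 cells that share a cell line and a run, and their part was not tested. Spearman's rho of the sum with the reads on genes was -0.627 in G&T, -0.400 in Takara and 0.173 for NEB (Pearson's r -0.673, -0.431 and 0.194). Without the 2 cells farthest from the median sum, r was -0.586, -0.0678 and 0.20. With the number of genes detected rho was 0.50, 0.155 and 0.336 (r 0.536, 0.182 and 0.263, and 0.0305, 0.391 and 0.416 without 2 cells). With the percentage of mitochondrial reads it was -0.00909, -0.473 and -0.627 (r -0.0303, -0.614 and -0.473, and -0.184, -0.404 and -0.468 without 2 cells). With the percentage of ERCC reads, from spike-in RNA added to each well, it was -0.427, -0.418 and -0.255 (r -0.418, -0.238 and -0.259, and -0.408, -0.494 and -0.0197 without 2 cells). In G&T the highest cell by sum, D1, had the most genes detected of its run (12794) and 1.91% ERCC reads, and the lowest, H1, the fewest (9541) and 2.49%. Takara A1 and E2, the highest and the lowest cell of their run, had 884209 and 952689 reads on genes, 10855 and 10983 genes detected, and 0.977% and 1.15% ERCC reads. Per ERCC read, which does not use the reads on other genes as a denominator, the sums spread as widely, with CVs of 0.568 in G&T, 0.659 in Takara and 0.930 for NEB.

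Origin licensing genes made up 22.7% of the genes' summed CPM in G&T and 23.0% in Takara. Their sum ran from 206 CPM in H1 to 2612 CPM in D1 in G&T, and from 105 CPM in E2 to 4153 CPM in A1 in Takara, 12.7-fold and 39.6-fold. NEB licensing sums ran from 119 to 1907 CPM. Of the 6 subunits of the MCM ring, MCM2 (ENSG00000073111; chromosome 3, 127598410 to 127622436) had a lowest, median and highest level of 0, 59.0 and 235 CPM in G&T and of 0, 121 and 418 CPM in Takara. It had reads in 2 NEB cells, at up to 124 CPM.

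MCM3 (ENSG00000112118; chromosome 6, 52264014 to 52284881) was at 22.8, 179 and 385 CPM in G&T, at 3.15, 177 and 1046 CPM in Takara and at 0, 1.5 and 363 CPM in NEB. Its CV squared in Takara was 16.4 times the trend, the median CV squared of all genes of a like mean level, and this was the second largest excess of the 45 genes there. MCM4 was at 3.11, 225 and 751 CPM in G&T, at 0, 183 and 611 CPM in Takara and at 0, 1.42 and 286 CPM in NEB. It correlated with MCM3 over G&T cells at rho 0.936, among the 3 highest of all pairs there.

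MCM5 (ENSG00000100297; chromosome 22, 35400134 to 35425431) was at 0, 32.8 and 237 CPM in G&T and at 3.17, 59.8 and 452 CPM in Takara, but in NEB it had 7 reads, all in cell D1. MCM6 (ENSG00000076003; chromosome 2, 135839626 to 135876443) was at 13.4, 62.0 and 214 CPM in G&T and at 0, 36.7 and 280 CPM in Takara. It was at 0, 7.37 and 383 CPM over the NEB cells. Its pooled level was 101 CPM in NEB, 71.4 CPM there without cell E2, 88.6 CPM in G&T and 82.9 CPM in Takara. MCM7 (ENSG00000166508; chromosome 7, 100092233 to 100101940) had reads in every G&T and Takara cell, at 40.3, 122 and 202 CPM and at 18.9, 257 and 483 CPM, and in 4 NEB cells. In G&T it was the steadiest of the ring, with a CV of 0.449.

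GMNN, which encodes geminin, the inhibitor of CDT1, was at 21.8, 185 and 566 CPM in G&T, at 45.1, 130 and 383 CPM in Takara and at 0, 135 and 478 CPM in NEB. Its highest G&T cell was E2, not D1. CDT1 itself had reads in 6 G&T, 11 Takara and 3 NEB cells, with highest levels of 52.1, 44.1 and 7.56 CPM. The inhibitor and its target correlated positively, at rho 0.686 in G&T and 0.745 in Takara. CDC6, the loader of the ring, was at 0, 57.7 and 297 CPM in G&T, at 0, 41.2 and 384 CPM in Takara, and at up to 241 CPM in 5 NEB cells. ORC1, the largest subunit of the origin recognition complex, had reads in 3 G&T cells (51 reads) and 6 Takara cells (129 reads), and ORC6 in 10 G&T, 9 Takara and 3 NEB cells.

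**Figure D2:**
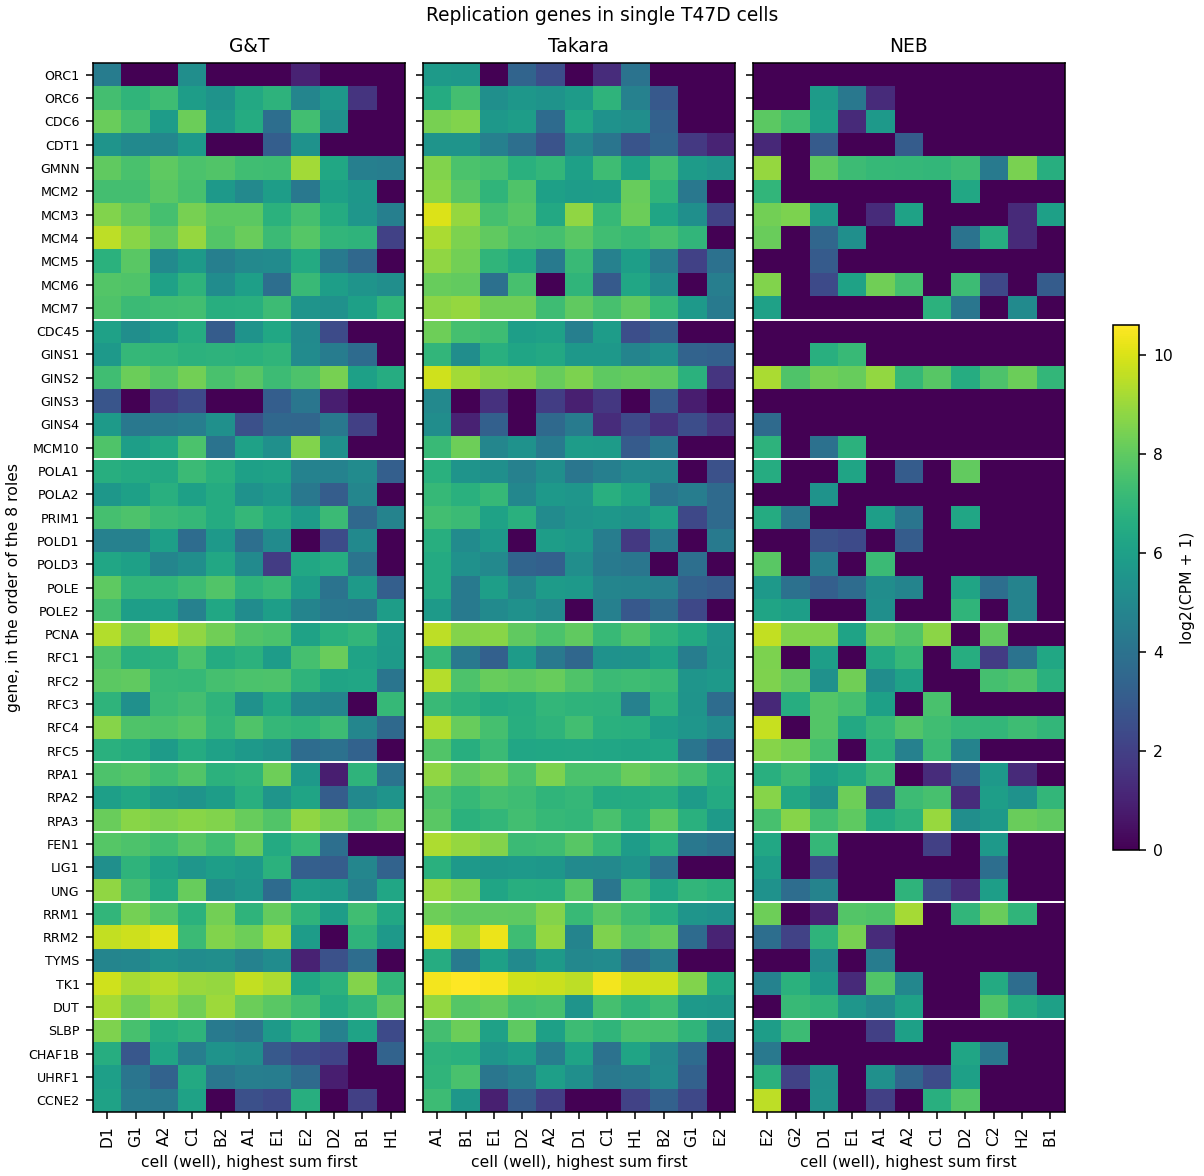
Each square is 1 gene in 1 kept cell, coloured by log2(CPM + 1), with the genes in the order of their 8 roles (white lines) and the cells of each protocol ordered from the highest summed level. TK1 and GINS2 are bright in nearly every Takara cell, ORC1 and GINS3 are dark in most cells, and NEB columns are largely at 0.

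Among the helicase activation genes GINS2 took the most reads in all 3 protocols. It was at 64.7, 197 and 344 CPM (lowest, median, highest) in G&T, at 2.10, 281 and 916 CPM in Takara and at 92.7, 230 and 604 CPM in NEB, where it was the gene with the highest pooled level (272 CPM, 261 to 284). GINS2 had the highest correlation of any Takara gene with the sum of the others, rho 0.955, and one of the lowest in G&T, rho 0.364. GINS1 was read in 10 G&T, 11 Takara and 2 NEB cells. GINS3 and GINS4, the remaining subunits, were sparse: GINS3 had 33 reads over 6 G&T cells and 44 over 7 Takara cells, and GINS4 157 and 94 reads. Of the GINS4 exon bases 23.4%, and of the GINS3 exon bases 10.9%, are shared with other genes, so their reads are uncertain too. CDC45, which joins the ring as GINS does, was at 0, 36.8 and 93.9 CPM in G&T and at 0, 56.7 and 308 CPM in Takara. Its rho with the sum of the others was 0.943 in Takara. MCM10, an initiation factor that binds the ring, was at 0, 59.6 and 380 CPM in G&T, with the highest level in E2, and at 0, 28.0 and 308 CPM in Takara, with the highest in B1. It had reads in 3 NEB cells, at up to 115 CPM.

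The 7 polymerase genes were read in 9 or more of the G&T and Takara cells. POLA1, the catalytic subunit of polymerase alpha, was at 8.30, 67.0 and 148 CPM in G&T and at 0, 29.0 and 106 CPM in Takara, and POLA2, its second subunit, at 0, 48.0 and 101 CPM and at 11.5, 50.5 and 138 CPM. PRIM1, the primase that starts each strand, was at 10.9, 131 and 197 CPM and at 3.96, 47.4 and 166 CPM. POLE, the leading strand polymerase, was at 8.30, 123 and 253 CPM in G&T and at 7.35, 27.2 and 87.1 CPM in Takara. The highest Takara cell for POLE lay below the G&T median.

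POLE2, its accessory subunit, had a median of 58.1 CPM in G&T and 19.6 CPM in Takara. POLD1, the catalytic subunit of polymerase delta, had reads in 9 G&T and 9 Takara cells with medians of 24.0 and 21.7 CPM, and POLD3, an accessory subunit, in 10 and 9 cells with medians of 36.7 and 17.0 CPM. In NEB these 7 genes had reads in 9 cells for POLE and in 1 to 5 cells for the others, and POLE (CV 0.937) and POLD1 (14 reads in 3 cells) were among the 3 genes with the smallest spread against the trend. All of them were at 0 in NEB cells B1 and C1.

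PCNA (ENSG00000132646; chromosome 20, 5114953 to 5126626), the sliding clamp, had near-equal pooled levels in the 3 protocols, 271 CPM (261 to 282) in G&T, 248 CPM (239 to 257) in Takara and 264 CPM (253 to 276) in NEB. Its levels were 55.0, 208 and 717 CPM over G&T cells, 45.1, 204 and 750 CPM over Takara cells and 0, 268 and 798 CPM over NEB cells, where B1, D2 and H2 had no read. PCNA followed the sum of the other genes at rho 0.918 in G&T, 0.891 in Takara and 0.541 for NEB. Its G&T spread was 3.31 times the trend in CV squared and its Takara spread 7.74 times.

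In the clamp loader the small subunits varied together in G&T and Takara, with RFC1 in part apart from them. RFC2, RFC3, RFC4 and RFC5, the small subunits, had a median rho between them of 0.568 in G&T and 0.745 in Takara over 6 pairs, and of 0.0362 in NEB (-0.205 to 0.547). With RFC1, the large subunit, included the lowest pair was -0.0364 in G&T and -0.336 in Takara, where RFC1 had rho -0.164 with the sum of the other genes, the lowest of the 45 genes. RFC1 was at 53.9, 109 and 291 CPM in G&T, highest in D2, and at 8.39, 41.2 and 137 CPM in Takara, highest in A1. Takara E1, the third highest cell by summed level, had the lowest RFC1 level, 8.39 CPM. RFC4 was at 11.4, 153 and 406 CPM in G&T, at 33.6, 106 and 639 CPM in Takara and at 0, 138 and 832 CPM in NEB. RFC5 had the highest rho with the sum of the others in G&T, 0.945, and RFC3 was among the 3 genes with the smallest spread against the trend in Takara, with a CV of 0.489. RFC2 had medians of 142, 200 and 106 CPM in G&T, Takara and NEB.

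The single-strand binding genes had the narrowest range of any role in G&T and Takara. Their sum spanned 2.13-fold and 3.68-fold, against 6.37-fold to 44.4-fold and 10.1-fold to 124-fold for the other roles. RPA3 was at 213, 344 and 459 CPM in G&T, with a CV of 0.252 and a CV squared 0.345 times the trend, the smallest of all 45 genes there. RPA3 was at 53.5, 129 and 240 CPM in Takara and at 36.5, 182 and 494 CPM in NEB, where its rho with the sum of the others was -0.255. RPA2 was at 7.71, 51.2 and 102 CPM in G&T, at 55.4, 123 and 197 CPM in Takara (CV 0.349, the smallest there) and at 1.52, 81.6 and 411 CPM in NEB. RPA1, the large subunit, was at 0.857, 120 and 302 CPM in G&T and at 99.7, 229 and 451 CPM in Takara, and it followed the sum of the others more closely than any other gene in NEB (rho 0.733).

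FEN1 and LIG1, which trim and seal Okazaki fragments, and UNG, which removes uracil from DNA, spanned wide ranges. FEN1 was at 0, 160 and 283 CPM in G&T and at 14.7, 149 and 628 CPM in Takara. LIG1 was at 7.71, 47 and 118 CPM and at 0, 42.0 and 105 CPM. UNG was at 12.1, 60.7 and 459 CPM in G&T, where its CV squared was 5.28 times the trend, the largest of the 45 genes, and at 17.1, 108 and 503 CPM in Takara. It had one of the 3 lowest correlations with the other genes in Takara, rho 0.209. Their sum had a median of 7.65 CPM in NEB and was 0 in cells A1, B1, E1 and H2. LIG1 was read in 3, FEN1 in 4 and UNG in 7 NEB cells.

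Nucleotide supply took the largest share of the genes' CPM of any role in G&T (25.8%) and in Takara (29.1%), and 12.1% in NEB. TK1, thymidine kinase, had the highest pooled level in G&T, 446 CPM (433 to 460), and in Takara, 950 CPM (932 to 968), and 47.7 CPM (43.0 to 52.7) in NEB. Its cells ranged over 79.5, 513 and 907 CPM in G&T, 81.9, 922 and 1556 CPM in Takara and 0, 25.02 and 212 CPM in NEB, so that the highest NEB cell lay below the G&T median. RRM2 (ENSG00000171848; chromosome 2, 10120698 to 10211725), the regulated subunit of ribonucleotide reductase, was at 0, 306 and 1110 CPM in G&T, at 1.05, 276 and 1238 CPM in Takara and at 0, 0 and 343 CPM in NEB, with reads in 5 NEB cells. It had the largest spread against the trend in Takara, 19.6 times in CV squared, and 5.06 times in G&T.

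RRM1, the partner subunit, was steadier, at 59.1, 126 and 336 CPM in G&T and at 40.9, 235 and 398 CPM in Takara, and correlated with RRM2 at rho 0.773 and 0.845. TYMS, thymidylate synthase, was at 0, 27.0 and 40.7 CPM in G&T and at 0, 30.2 and 93.9 CPM in Takara, and had reads in 2 NEB cells. In G&T its CV squared was 0.613 times the trend, among the 3 smallest. Of the TYMS exon bases 47.9% are shared with ENOSF1 and another gene, and the strand setting of the counts is not given in the sources used here, so its reads are uncertain. DUT, the dUTPase, was at 87.4, 299 and 595 CPM in G&T, at 44.4, 165 and 477 CPM in Takara and at 0, 63.4 and 209 CPM in NEB, with rho -0.0917 to the sum of the others in NEB. It has 8 named pseudogenes in the annotation, and PCNA, RRM2 and RPA2 have 3 each.

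CCNE2, cyclin E2, was high in few cells. In G&T it was at 0, 4.96 and 98.3 CPM (highest in E2), in Takara at 0, 3.23 and 155 CPM (highest in A1) and in NEB at 0, 0 and 751 CPM (highest in E2). Its CV squared was 11.3 times the trend in Takara and 5.23 times in NEB, the largest there. Of its exon bases 37.1% are shared with INTS8 and another gene. SLBP, which binds the stem-loop of histone mRNA, was at 4.15, 70.6 and 373 CPM in G&T and at 37.8, 153 and 300 CPM in Takara. UHRF1, which recruits the maintenance DNA methyltransferase, had medians of 16.5 and 23.2 CPM, and CHAF1B, a chromatin assembly factor subunit, medians of 9.34 and 44.8 CPM. SLBP was read in 4, UHRF1 in 7 and CHAF1B in 3 NEB cells.

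Set against all genes of a like mean level, the replication genes spread more between cells in G&T and in Takara. The trend is the running median of CV squared over all genes with a mean of at least 1 CPM, and a gene was called above it at 2 times the trend or more. Above the trend were 14 of 45 genes in G&T, against 11% of all genes, 37 of 45 in Takara, against 13.4%, and 8 of 41 in NEB, against 8.83%. The median CV squared was 1.69, 3.94 and 1.18 times the trend. Leaving out Takara cell A1 left 28 of 45 genes above the trend (62.2%), where 14.1% of all genes were, and leaving out NEB cell E2 left 4 of 40 (10.0%), where 7.80% of all genes were. The 20 genes of the G2 and mitosis list, used as a comparison, stood further above, with medians of 3.97, 14.05 and 3.75 times, and of the other replication genes 10 of 40, 18 of 40 and 5 of 36 were above.

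**Figure D3:**
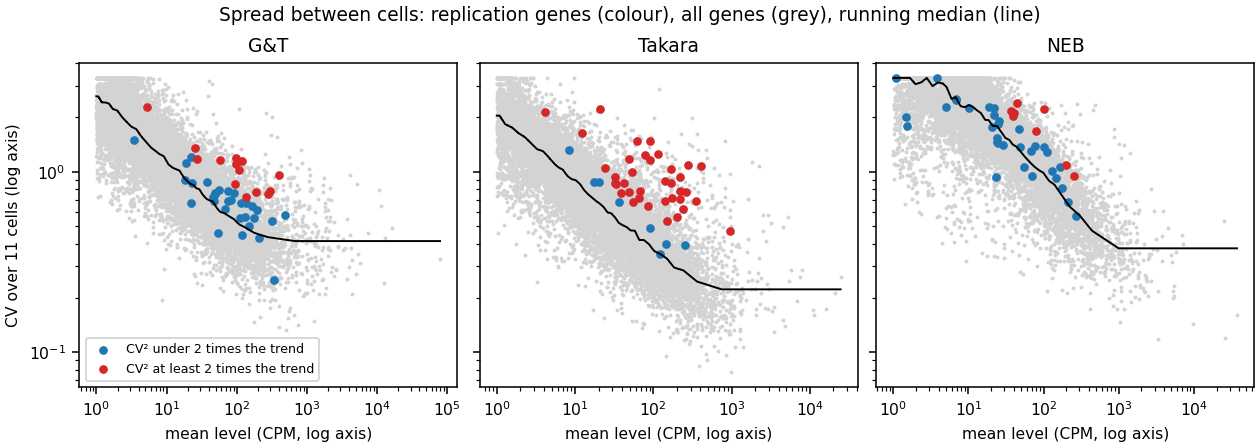
Each point is a gene, with its mean level on the x axis (CPM, log axis) and its CV over 11 kept cells on the y axis (log axis). Grey points are all genes with a mean of at least 1 CPM, the line is their running median, and coloured points are the replication genes, of which 37 of 45 in Takara are red (CV squared at least 2 times the trend).

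Pairs of the genes mostly correlated positively over cells. Between the 44 genes with reads in at least 6 G&T cells, the median Spearman's rho over 946 pairs was 0.501, and 95.03% of the pairs were above 0. Over all pairs of the 10467 genes that passed the same filter the median was 0.0572, and 56.3% were above 0. In Takara the median over 990 pairs was 0.609, against 2.04e-08 over all gene pairs, and 65.7% of the pairs reached 0.5 where 6.45% of all gene pairs did. NEB had 20 genes in at least 6 cells, whose median over 190 pairs was 0.178, against 0.00909 over all gene pairs, and 0.0506 without cell E2. At NEB's sparse counts this value describes little. The cells of a protocol share a cell line and a run, each level shares its cell's denominator, and n was 11 cells in each.

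**Figure D4:**
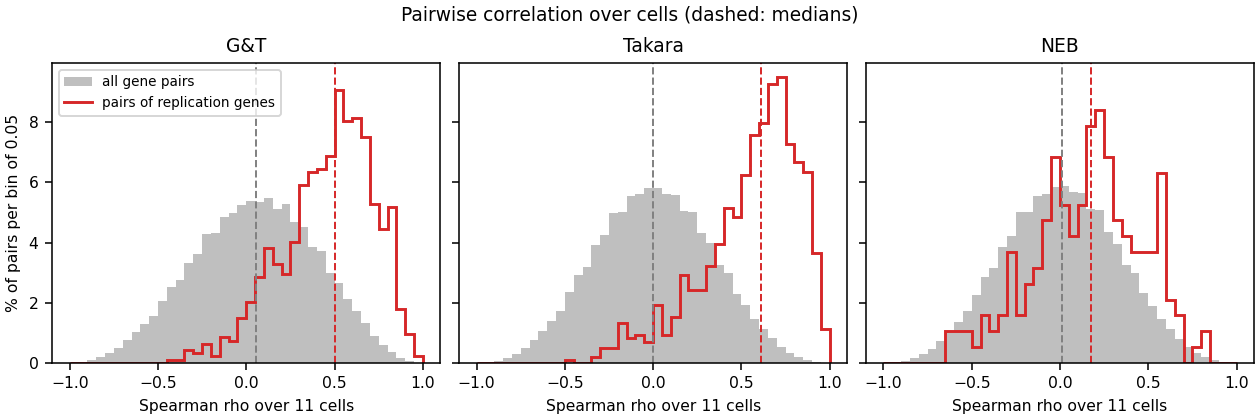
The red outline gives the percentage of pairs of replication genes in each bin of Spearman's rho (x axis, bins of 0.05) and the grey area the percentage of all gene pairs, over the 11 kept cells of each protocol. Dashed lines mark the medians, at 0.501, 0.609 and 0.178 for the replication genes.

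Under other scalings the medians stayed above those of all gene pairs. With TMM factors, which scale libraries by the bulk of their genes, they were 0.396, 0.609 and 0.181, with all gene pairs at 0.00909, 1.08e-08 and 0.00953. Per ERCC read they were 0.591, 0.670 and 0.256, with all gene pairs at 0.167, 0.205 and 0.144. Each gene's rho with the sum of the others was above 0 for 44 of 44 genes in G&T, 44 of 45 in Takara and 18 of 20 in NEB, with medians of 0.682, 0.755 and 0.234. The share of all genes with a rho above 0 to this sum was not computed. Highest were RFC5, PCNA and MCM4 (0.90) in G&T, GINS2, CDC45 and LIG1 (0.943) in Takara, and RPA1, RFC5 (0.642) and RFC3 (0.629) in NEB. Lowest were GINS3 (0.191), POLD3 (0.291) and GINS2 in G&T, RFC1, GINS4 (0.164) and UNG in Takara, and RPA3, DUT and RFC1 (0.00917) in NEB.

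Genes of 1 role and genes of different roles differed little in their correlation, with median rho 0.540 within and 0.496 between roles in G&T, and 0.679 and 0.598 in Takara. The MCM ring was among the tighter sets, with 15 pairs at a median of 0.600 in G&T (0.336 to 0.936) and 0.791 in Takara (0.609 to 0.945). RPA1, RPA2 and RPA3 had medians of 0.336 and 0.418. Over the 946 pairs used in both protocols, 368 reached 0.5 in both, which is 76.8% of the 479 that did in G&T and 59.0% of the 624 that did in Takara. Of all 946 pairs 50.6% reached it in G&T and 66.0% in Takara, and over the pairs the rho of the 2 protocols had a rank correlation of 0.346.

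The genes did not all peak in the same cells. In Takara cell E1 RRM2 was at 1238 CPM and TK1 at 1384 CPM while MCM6 was at 13.99 and CCNE2 at 0.933 CPM, and in Takara cell D1 MCM3 was at 460 and UNG at 222 CPM while RRM2 was at 26.6 CPM. G&T cell E2 had the highest MCM10, GMNN and CCNE2 levels of its run with RRM2 at 56.5 and PCNA at 68.0 CPM. RRM2 and MCM6 correlated at rho 0.291 in G&T and 0.182 in Takara, and RRM2 and TK1 at 0.800 and 0.855. These cells and pairs were picked after their values were seen. The summed CPM of nucleotide supply over that of origin licensing ran from 0.282 in E2 to 2.51 in H1 in G&T and from 0.661 in D1 to 2.84 in A2 in Takara.

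The summed level of the 45 genes had rho 0.582 with that of the G2 and mitosis list in G&T (r 0.366, and 0.533 without the 2 farthest cells), 0.373 in Takara (r 0.102, and 0.573) and 0.709 in NEB (r 0.0621, and 0.635). By role, nucleotide supply had rho 0.855 with the G2 and mitosis sum in G&T, 0.627 in Takara and 0.245 over NEB cells (r 0.718, 0.479 and 0.247, and 0.599, 0.576 and 0.465 without 2 cells). Origin licensing had 0.218, 0.0545 and 0.291 (r 0.0508, -0.151 and -0.119, and 0.0650, 0.102 and -0.0675). Over all kept NEB cells, rho put licensing above supply and r put supply above licensing. The 2 cells dropped were those farthest from the median of each role's own sum, so they were not the same for both roles. Without them rho in NEB was 0.617 for supply and 0.167 for licensing. Being over different cells, the values without 2 cells give no order of the roles. The other 6 roles had rho between -0.0364 (helicase activation) and 0.645 (DNA polymerases) in G&T. In Takara their rho lay between -0.00909 (chromatin, histone mRNA and cyclin) and 0.70 (single-strand binding).

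Gene by gene, over the genes with reads in at least 6 cells, the 5 nucleotide supply genes had rho 0.673 to 0.882 with the G2 and mitosis sum in G&T and 0.427 to 0.743 in Takara, with TYMS highest in both. The 10 origin licensing genes in G&T ran from -0.164 (MCM6) to 0.573 (ORC6), with a median of 0.309, and the 11 in Takara from -0.269 (MCM6) to 0.545 (GMNN), with a median of 0.173. In NEB 3 supply genes lay between -0.0826 and 0.248, with a median of -0.0275. The 4 licensing genes there lay between -0.110 and 0.118, with a median of -0.00709, above that of supply. The difference between roles was not tested.

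**Figure D5:**
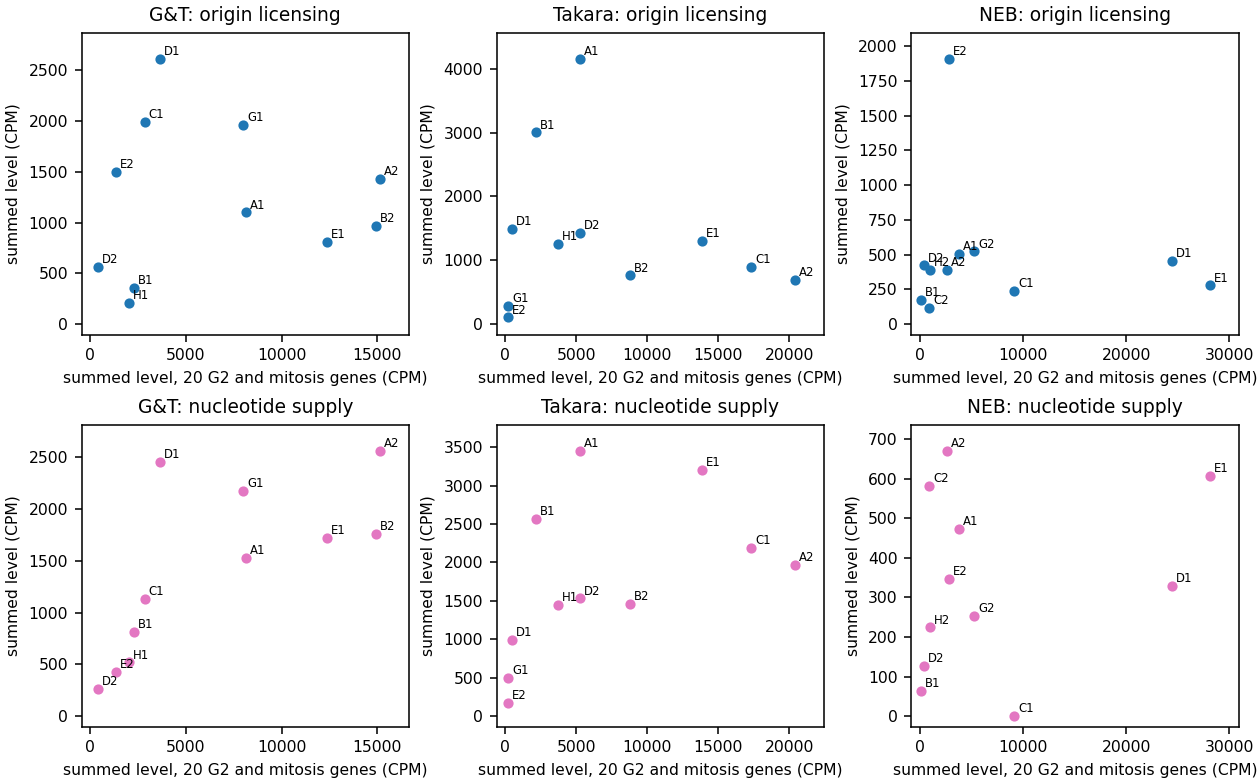
Each point is a kept cell, named by its well, with the summed level of the 20 G2 and mitosis genes on the x axis (CPM) and the summed level of origin licensing (top, blue) or nucleotide supply (bottom, pink) on the y axis (CPM). In G&T and Takara the cells with the highest licensing sums, D1 at 2612 and A1 at 4153 CPM, are not those with the highest G2 and mitosis sums. The highest supply sum in Takara is also in A1, at 3449 CPM. In G&T it is in A2, at 2559 CPM, the cell with the highest G2 and mitosis sum.

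Other replication genes varied with the 45. The sum of the 40 genes in that list, which includes ORC2 to ORC5, POLD2, PRIM2, DNMT1, E2F1 and BRCA1, had rho 0.964 with the sum of the 45 in G&T (r 0.940, and 0.951 without 2 cells), 0.909 in Takara (r 0.818, and 0.850) and 0.536 in NEB (r 0.845, and 0.368). For the 64 replication-dependent histone genes, whose mRNAs mostly lack a poly(A) tail, the direction differed between protocols and measures. Their sum had rho -0.309, 0.109 and 0.0455 with that of the 45 (0.0833, -0.0667 and 0.5 without 2 cells) and r -0.506, 0.640 and -0.0284 (-0.0646, 0.539 and 0.379). Among them 14 of the 64 in G&T, 26 in Takara and 41 for NEB had no read.

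Between protocols the pooled levels of the 45 genes were close in G&T and Takara and lower in NEB for most genes. A gene was called at a 2-fold ratio of pooled CPM, with 1 CPM added, where it had at least 33 reads in the 2 protocols together, and each protocol is 1 sample, so no test was made. In bulk or pooled sums, fewer cells in a state and less RNA per cell cannot be told apart. In G&T 5 of 45 genes were at least 2-fold above Takara (POLA1, POLE, POLE2, RFC1 and RPA3), against 20.7% of all genes, and 9 without Takara cell A1. In Takara 4 were at least 2-fold above G&T (MCM7, RPA2, TK1 and UHRF1), against 18.4%, and 1 without G&T cell D2 or 11 without G&T cell D1. For these ratios no share of all genes was computed with a cell left out. RFC1 had the largest ratio of these, a log2 ratio of 1.76 for G&T over Takara, with 138 CPM (131 to 146) against 40.3 CPM (36.7 to 44.1). The median log2 ratio of the 45 genes was -0.16, and that of all genes 0.00278.

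Against NEB, 28 of 45 genes were at least 2-fold higher in G&T, against 43% of all genes, and 26 in Takara, against 42.3%. The median log2 ratios were 1.65 and 1.41, against 0.57 and 0.49 over all genes, and they were the same with the genes at 0 in NEB set to their bound. The largest gaps were at CDC45, at least 94.6-fold higher in G&T and at least 191-fold higher in Takara than the 3 reads that an NEB count of 0 allows over the pool, and at MCM5 with log2 ratios of 4.90 and 5.83. TK1 stood at 3.2 and 4.29 and RRM2 at 2.89 and 3.05. ORC1 was at least 14.3-fold and 29.3-fold higher.

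Few genes went the other way. In NEB 3 genes (RFC5, RPA2 and CCNE2) were at least 2-fold above G&T, against 21.3% of all genes, and 1 (CCNE2) above Takara, against 24.1%. NEB cell E2 held most of the CCNE2 reads. CCNE2 had 820 pooled reads in NEB (103 CPM, 95.9 to 110) and 250 without E2 (34.7 CPM), beside 25.8 CPM in G&T and 18.1 CPM in Takara. Without E2, 0 of the 45 genes were at least 2-fold above either protocol in NEB, and without Takara cell A1, 3 were above Takara. Of the 40 other replication genes 15 were at least 2-fold higher in G&T than in Takara and 3 lower, with a median log2 ratio of 0.51.

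Levels within complexes are compared per kilobase of the exons of each gene, since longer genes take more reads, and these are pooled levels of reads and not of protein. In the MCM ring MCM3 was highest in G&T and Takara (49.8 and 71.4 CPM per kilobase) and MCM5 lowest (7.56 and 14.6), a 6.58-fold and 4.91-fold span, where NEB spanned 202-fold. Taking the length of the canonical transcript in place of all exons, the span was 4.05-fold in G&T with MCM4 highest at 64.3, and MCM6 was lowest in Takara at 22.1. In GINS, GINS2 stood at 65.2, 104 and 84.5 CPM per kilobase in G&T, Takara and NEB, above GINS1 at 8.77, 6.57 and 3.10 and GINS3 at 0.680, 0.735 and 0.

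Over all exons RPA differed in order between protocols: RPA3 was highest in G&T at 104 CPM per kilobase over RPA2 at 26.1 and RPA1 at 23.2. In Takara the values were 44.4, 59.9 and 45.3 and in NEB 63.8, 65.3 and 9.89. The NEB order depends on the length taken. The canonical transcript is 2.02 kilobases for RPA3, against 3.232 over all exons, and 1.584 for RPA2, against 1.981. With canonical lengths RPA3 stood above RPA2 in NEB, as in G&T, and RPA2 stayed highest in Takara. In the clamp loader RFC1 was lowest in Takara (6.0) and NEB (11.7), and RFC5 in G&T (13.9). RRM1 and RRM2 were near equal over all exons in G&T, 38.9 and 38.5, and stood at 52.5 and 108 over canonical transcripts.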

How the data were processed

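The authors trimmed paired-end reads in 2 rounds with Trim Galore, aligned them to GRCh38 with STAR and merged its counts of reads per gene into 1 table per protocol. The deposited tables hold unnormalized and unfiltered read counts for 60279 genes and 92 ERCC spike-ins. The annotation release and the strand setting are not given in the sources used here. Cells were kept at 1000 genes, 600000 reads on genes and spike-ins, at most 30% mitochondrial and at most 25% ERCC reads. The genes, roles and lists were chosen with earlier results of these data known. CPM used reads on genes, without ERCC reads, as the total. Lengths, coordinates and shared exon bases came from GENCODE release 44, which may differ from the authors' release, and promoters from RefSeq.

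All 45 genes are described by role. Full values were set for PCNA, MCM2 to MCM7, RRM2, TYMS, CCNE2 and GMNN, and per protocol for the 3 genes with the highest pooled level, the 3 with the highest and the 3 with the lowest rho with the sum of the others, and the 3 with the largest and the 3 with the smallest CV against the trend. The trend used 40 bins. The computed statistics were tested on simulated data. Scaling factors came from edgeR 4.0.16 (TMM) and DESeq2 1.42.0 in R 4.3.3, used for no test. Other steps used Python 3.11.15 with scipy 1.17.1, numpy 2.4.6, pandas 2.3.3, and figures matplotlib 3.10.9. Alternatives covered detection, depth, scaling, filters, the pseudocount, gene length and single cells left out.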

Additional observations from a re-analysis of the deposited data

Results flagged for a closer look

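The 7 cells left out by the quality thresholds hold reads on the replication genes, and 6 of them more than the 3 reads that a count of 0 allows. G&T cell C2, removed at 33.7% mitochondrial reads, had 940 reads on 18 of the genes (1332 CPM summed), below every kept G&T cell, and G&T cell F1, removed for a small library, had 1911 reads on 42 genes (3275 CPM). NEB cell F2 had 2085 reads on 32 genes (3791 CPM) beside 28726 CPM on the G2 and mitosis list, and NEB cell B2 had 38 reads on 8 genes (84.3 CPM). In the wells with over 90% ERCC reads, Takara C2 had 14 reads on 6 genes, NEB F1 had 9 reads on 4 genes, and Takara F1 had 3 reads. These wells enter no comparison above.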

How the results depend on the processing

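With the alternatives, 70 of 84 values outside the left-out cells stayed close to those reported (within 1.5 times for counts and the MCM span, 0.1 for rho and CVs, and 1 SD over cells for the mean number of genes detected). In NEB, 25 of the genes had reads in fewer than 6 cells, which limits what this protocol can show of spread and covariation. The genes in every kept cell numbered 35 in place of 23 in G&T and 5 in place of 3 in NEB when 10 of 11 cells sufficed. All deposited cells gave 35.8 genes detected per Takara cell. TMM scaling gave a median rho of 0.396 in G&T and 7 genes in Takara 2-fold above G&T, against 19.9% of all genes. Per ERCC read, rho with the G2 and mitosis list was 0.609 in Takara and 0.482 in NEB, and the CV of the NEB sum 0.930, and with mean ranks rho was 0.536 in NEB. Over canonical transcripts the MCM span was 4.05-fold in G&T and 106-fold in NEB. Median CPM over cells in place of pooled CPM gave 10 genes in G&T above Takara, against 18.3% of all genes. It gave 0 in NEB above G&T, against 10.9%, and 0 above Takara, against 11.1%. With it the log2 ratios over NEB reversed, to 0.95 for RFC5 and 2.57 for CCNE2 in G&T and to 2.08 for CCNE2 in Takara. The causes were not tested.

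With each cell left out in turn, the median rho ran from 0.430 to 0.552 in G&T, 0.522 to 0.669 in Takara and 0.0506 (without E2) to 0.219 in NEB. The rank correlation of the sum with the G2 and mitosis list ran from 0.503 to 0.661, 0.164 (without Takara E2) to 0.515 and 0.612 to 0.806. The CV of the sum ran from 0.418 to 0.513, 0.515 (without A1) to 0.694 and 0.283 (without E2) to 0.719. Genes above the trend numbered 13 to 19, 28 to 39 and 4 (without E2) to 10. Genes past 2-fold numbered 4 to 9 (without Takara A1) for G&T above Takara, 1 (without G&T D2) to 11 (without G&T D1) for Takara above G&T, 25 to 31 and 0 to 3 for G&T and NEB, and 23 to 27 and 0 to 3 for Takara and NEB. The matching shares of all genes with a cell left out were not computed. Leaving out cells for the CV trend, the CV of the sum, the ratios and the MCM6 level, and the canonical transcript, were chosen after seeing the data.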
